A study of Mus musculus with 12 samples.

Results

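The clustered protocadherins are the adhesion genes of the alpha, beta and gamma protocadherin clusters. Members were taken by symbol from the deposited count table: every gene named Pcdha, Pcdhb, Pcdhga, Pcdhgb or Pcdhgc with a number, besides Pcdhac1 and Pcdhac2. The rule found 57 members among 55367 genes, of which 11 were alpha, 22 beta, 12 gamma A, 7 gamma B and 5 C-type genes. The C-type genes are Pcdhac1 and Pcdhac2 at the end of the alpha cluster and Pcdhgc3, Pcdhgc4 and Pcdhgc5 at the end of the gamma cluster. In the mouse annotation GENCODE M21 (build GRCm38) all members lay on the plus strand of chromosome 18. The alpha genes spanned 36930184 to 37187661, the beta genes 37264938 to 37524479 and the gamma genes 37661793 to 37841873. All 22 beta genes were single-exon models, whereas each alpha or gamma gene had its own large variable exon, spliced to constant exons that the genes of its cluster share. Of the 57 members, 42 passed the filter on low counts and were tested: 21 beta, 11 gamma A, 7 gamma B and 3 C-type genes.

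Clustered protocadherins are cell surface proteins of the cadherin superfamily that bind the same isoform on a neighbouring cell. In neurons each cell uses its own choice of alternate isoforms, through promoters that are selected one by one with the help of CTCF, cohesin and DNA methylation, and the resulting mixture marks a cell's identity for self-avoidance. The C-type genes are known to be controlled apart from the alternate isoforms, and Pcdhgc3 in particular is widely used outside the nervous system.

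The libraries were 12 bulk RNA sequencing libraries of mouse tongue organoids, which are cultures that grow from tissue stem cells. They came from 6 cultures with 2 libraries (duplicates) each, in 2 lines: CVP, from the circumvallate papillae, and FoP, from the foliate papillae, both taste papillae of the posterior tongue. Each line had a wild type culture (treatment label NA) and 2 clones labelled as Foxe1 knock-out by genetic modification, which were clone 2.9 and clone 2.10 in CVP and clone 2.4 and clone 2.5 in FoP. The labels give no strain, sex, age or editing method, and name no wild type clone, so the genotype cannot be told apart from the derivation of a clone. The labels do not say that duplicates were separate cultures, so p-values measure the spread between these libraries, which may be technical.

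The members took 7825 to 12949 counts of a library, or 0.0121 to 0.0201%, of library totals that ran from 59260916 to 73568645 counts. The knocked-out gene, the transcription factor Foxe1, did not separate the labels: it held 1049 and 1144 counts in the CVP wild type, 1527 and 1432 in clone 2.9 and 487 and 547 in clone 2.10. In FoP it held 1124 and 989 counts in the wild type, 1471 and 1292 in clone 2.4 and 707 and 660 in clone 2.5. Where in the gene the edit lies is not stated, so gene-level counts do not check it. All 10 epithelial markers stood at or above 0.5 CPM (counts scaled by library size) in every culture, with sums of 10422 to 15344 CPM, led by the basal keratin Krt5. Sums over the markers of other cell types were 939 to 6116 CPM for fibroblasts, 220 to 330 CPM for glia, 20.3 to 106 CPM for neurons, 10.3 to 108 CPM for immune cells, 1.60 to 3.65 CPM for endothelium and at most 1.22 CPM for muscle. Lum among the fibroblast, Elavl4 among the neuronal and Foxd3 among the glial markers had no count in any library.

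Expression was carried by the beta and gamma clusters and by a single C-type gene. As the mean of duplicates, the summed beta genes reached 38.5 CPM in the FoP wild type and 81.3 CPM in clone 2.10, their lowest and highest culture. Gamma A sums ran from 15.0 to 35.7 CPM, gamma B sums from 9.29 to 47.4 CPM, and C-type sums from 39.4 to 68.2 CPM. The alpha genes summed to at most 0.470 CPM in a culture, and no alpha gene held more than 12 counts in any library. Pcdha4, Pcdha6, Pcdhac1, Pcdhac2 and Pcdhga10 were at 0 counts in all 12 libraries. The other members outside the test were 9 alpha genes and Pcdhb1, which held 2 counts in a single library. With a floor of 3 counts per library, a member at 0 may still lie below what this depth can show. Depth is not the only limit. Every 75-base window of the variable exon of Pcdhga10 was also found in another gene's transcript, and opposite-strand Gm26672 covers 100% of that exon. For Pcdha4, 2.47% of such windows were found in no other gene's transcript. Reads of Pcdhga10 and Pcdha4 may thus have been lost at any depth.

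**Figure D1:**
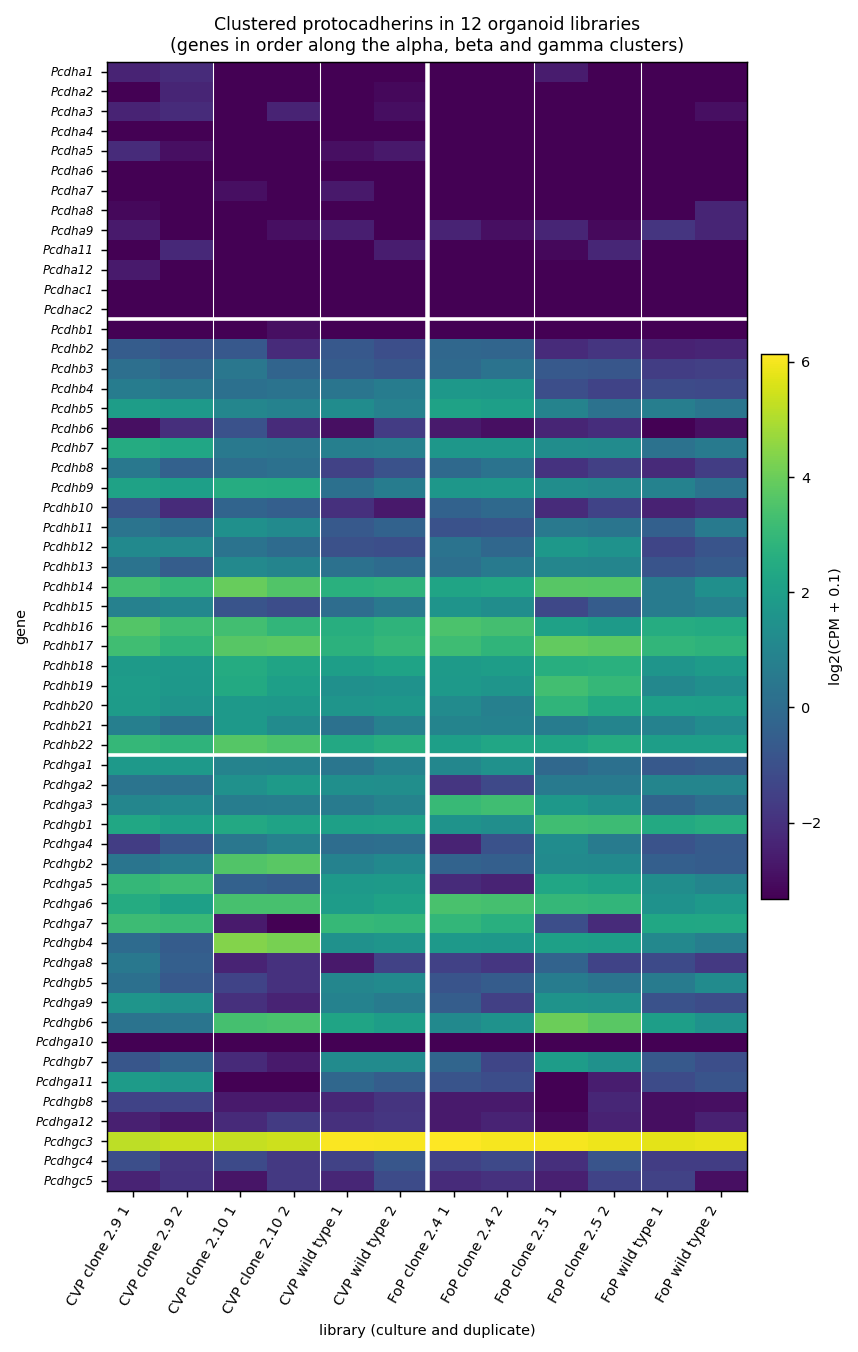
Level of each of the 57 members (rows, in order along the clusters) in each of the 12 libraries (columns), as log2(CPM + 0.1). Pcdhgc3 is the brightest row in every library, the alpha rows are dark throughout, and beta and gamma rows differ in brightness between cultures while duplicates of a culture look alike.

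Levels of different members were compared per length, as CPM per kilobase of exon that no other gene of the same strand covers. On this scale Pcdhgc3 was the highest member in every culture. It reached 11.5 ± 1.10 CPM per kb (SD, n = 2) in clone 2.9, 12.3 ± 0.675 in clone 2.10 and 19.8 ± 0.623 in the CVP wild type. In FoP it reached 20.1 ± 1.19 in clone 2.4, 18.4 ± 0.746 in clone 2.5 and 16.5 ± 0.733 in the wild type. An exon of the opposite-strand gene BC037039 lies under 46.1% of its variable exon, and whether reads were counted by strand is not stated. Pcdhgc4 and Pcdhgc5 stayed low, at no more than 0.375 and 0.225 CPM in any culture.

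The leading gamma A and gamma B isoforms changed with the culture, and the leading beta genes were closer to each other. Among beta genes the highest per length was Pcdhb16 in clone 2.9 (2.03 ± 0.419 CPM per kb) and in clone 2.4 (1.98 ± 0.140), and Pcdhb17 in the other 4 cultures (1.52 to 2.99). Pcdhb17 followed at 1.76 ± 0.359 in clone 2.9 and 1.76 ± 0.272 in clone 2.4, within its spread of Pcdhb16 in both. Among gamma A genes it was Pcdhga5 in clone 2.9 (3.25 ± 0.284), Pcdhga7 in both wild types (2.55 ± 0.0868 in CVP and 1.60 ± 0.0477 in FoP) and Pcdhga6 in the remaining clones (2.91 to 3.97). In clone 2.9 Pcdhga7 followed at 2.80 ± 0.0579, and it led there when only exon bases free of genes on both strands were counted as length. The leading gamma B gene was Pcdhgb4 in clone 2.10 (5.46 ± 0.502), Pcdhgb6 in clone 2.5 (5.64 ± 0.787) and in the CVP wild type (1.63 ± 0.207), and Pcdhgb1 in the FoP wild type (2.11 ± 0.139), clone 2.9 (1.67 ± 0.249) and clone 2.4 (1.01 ± 0.0777), where Pcdhgb4 led with all exon bases as length. In the CVP wild type Pcdhgb1 (1.57 ± 0.0290) was within the spread of Pcdhgb6, and so was Pcdhgb6 (0.958 ± 0.156) of Pcdhgb1 in clone 2.4. Among alpha genes the highest level in any culture was 0.0547 CPM per kb, for Pcdha9 in the FoP wild type, a level that rests on 12 and 6 counts.

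Gamma A and B expression was spread over more isoforms in some cultures than in others. In the CVP wild type the 3 highest of the 19 isoforms took 40.3 and 37.7% of the summed CPM per kb in the duplicates. The share was 48.2 and 49.5% in clone 2.9 and 59.9 and 59.0% in clone 2.10. It was 67.1 and 65.5% in clone 2.4, 55.4 and 57.0% in clone 2.5 and 49.7 and 50.1% in the FoP wild type. In each line both clones had a higher share than the wild type culture in both duplicates. These shares are descriptions of 6 cultures and were given no test.

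The question put to these data was which isoforms differ between clones of the same line and label. Between clone 2.9 and clone 2.10, 21 of the 42 tested members passed an adjusted p of 0.05 in edgeR's quasi-likelihood test (called from here on), against 5.42% of all 17076 tested genes. Higher in clone 2.9 were 12 members (all genes: 2.54%) and lower were 9 (all genes: 2.89%). The called members were 7 of 21 beta, 9 of 11 gamma A and 5 of 7 gamma B genes. A change of more than 2-fold was called for 17 members, against 1.98% of all genes. The median size of the log2 fold change was 1.09 over the tested members and 0.13 over all tested genes. Among the 12360 genes within the members' range of mean level, 5.31% were called. That range is wide, from -2.97 to 5.80 in log2 CPM, so these genes are not matched to the members in level. Duplicates of the clones did not overlap for 32 of 42 tested members, against 42.9% of all genes.

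Gamma A isoforms led the genes that were higher in clone 2.9. Pcdhga11 held 228 and 188 counts in clone 2.9, no count in either duplicate of clone 2.10, and 54 and 43 in the CVP wild type. Its level was at least 71.2-fold higher in clone 2.9 than the floor of 3 counts per library allows in clone 2.10 (adjusted p = 5.6e-06). An exon of the opposite-strand gene Gm26672 lies under 52.4% of its variable exon. Pcdhga7 held 567 and 539 counts in clone 2.9, 4 and 0 in clone 2.10, and 552 and 555 in the wild type. Clone 2.9 and the wild type were both high and clone 2.10 was near 0, a ratio between the clones of 284 with a 95% counting interval of 111 to 1044. Its log2 fold change was 8.06 ± 0.45 (SE, adjusted p = 6.75e-08).

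Pcdhga9 and Pcdhga5 were higher in clone 2.9 as well. Pcdhga9 held 189 and 164 counts in clone 2.9, 10 and 6 in clone 2.10 and 119 and 104 in the wild type, a log2 fold change between the clones of 4.48 ± 0.42 (adjusted p = 7.73e-06). Pcdhga5 held 500 and 554 counts in clone 2.9, 44 and 38 in clone 2.10 and 228 and 248 in the wild type (3.72 ± 0.22, adjusted p = 6.25e-08). For both genes the 3 CVP cultures did not overlap, with the wild type between the clones.

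Gamma B isoforms led the genes that were higher in clone 2.10. Pcdhgb4 held 58 and 36 counts in clone 2.9, 1386 and 1185 in clone 2.10 and 181 and 214 in the wild type, and its log2 fold change was -4.73 ± 0.21 (adjusted p = 5.5e-09). Pcdhgb2 held 77 and 95 counts in clone 2.9, 779 and 845 in clone 2.10 and 118 and 157 in the wild type (-3.20 ± 0.20, adjusted p = 1.44e-07). Pcdhgb6 held 73 and 75 counts in clone 2.9, 665 and 681 in clone 2.10 and 311 and 274 in the wild type (-3.14 ± 0.21, adjusted p = 2.01e-07). For each of the 3 genes clone 2.10 was the highest CVP culture and clone 2.9 the lowest. Pcdhga4, with 15 and 32 against 83 and 109 counts, was called with a log2 fold change of -1.99 ± 0.51 (adjusted p = 0.0352), and this call was lost in 6 of 12 fits that left out a library, with an adjusted p of 0.256 without duplicate 1 of clone 2.9.

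Only Pcdhga7 and Pcdhga11 met the rule for an isoform that was on in a clone (at least 0.5 CPM in both duplicates) and off in the other clone of its line (under 0.1 CPM in both). Over all tested genes 0.193% met it in CVP. In FoP no member met it, where 0.158% of all genes did. The result depends on the limit for off. Pcdhga5 stood at 0.122 and 0.0929 CPM in clone 2.4, against 4.75 and 4.22 CPM in clone 2.5. Pcdhga9 stood at 0.151 and 0.0928 CPM in clone 2.10, against 2.93 and 2.60 CPM in clone 2.9. Both genes missed the limit in a single duplicate.

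**Figure D2:**
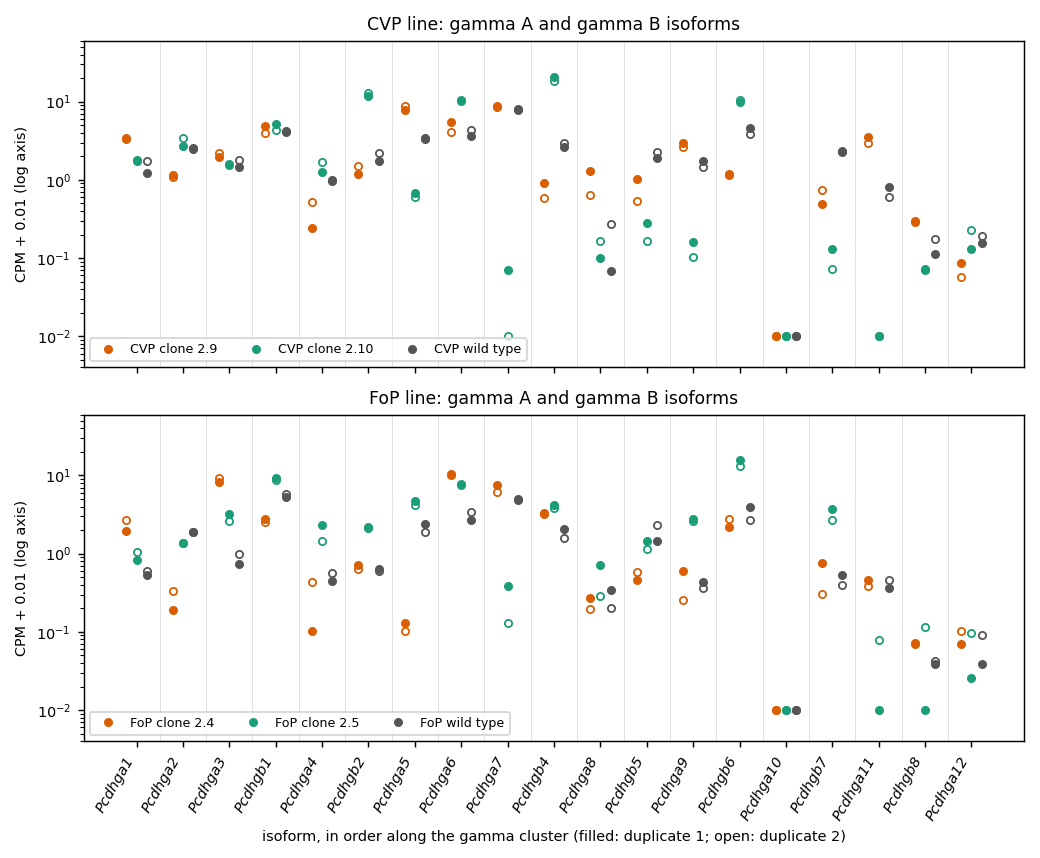
Level of the 19 gamma A and gamma B isoforms in the CVP cultures (upper panel) and FoP cultures (lower panel), in CPM + 0.01 on a log axis, with a point for each duplicate. In the upper panel Pcdhga7 and Pcdhga11 sit at the bottom in clone 2.10 and at 2.98 CPM or more in clone 2.9, and Pcdhgb4 shows the opposite order.

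Between clone 2.4 and clone 2.5 in FoP, 25 of the 42 tested members were called, against 7.26% of all tested genes. Higher in clone 2.4 were 10 members (all genes: 3.72%) and lower were 15 (all genes: 3.53%). The called members were 13 of 21 beta, 8 of 11 gamma A and 4 of 7 gamma B genes, and the 4 gamma B genes were all lower in clone 2.4. A change of more than 2-fold was called for 23 members, against 2.53% of all genes. The median size of the log2 fold change was 1.45 over the tested members and 0.15 over all tested genes. Of the 12360 genes within the members' wide range of mean level, 7.25% were called. Duplicates of the clones did not overlap for 36 of 42 members, against 53.9% of all genes.

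The gamma A genes held the largest differences in both directions. Pcdhga5 held 8 and 6 counts in clone 2.4, 299 and 243 in clone 2.5 and 166 and 117 in the FoP wild type (log2 fold change -5.36 ± 0.28, adjusted p = 1.8e-08). Pcdhga7 held 499 and 399 counts in clone 2.4, 24 and 7 in clone 2.5 and 333 and 312 in the wild type (4.74 ± 0.33, adjusted p = 7.83e-07). For each of these genes a single clone was low and the wild type lay between the clones. Pcdhga11 was scarce in every FoP culture, with 30 and 24 counts in clone 2.4, 0 and 4 in clone 2.5 and 24 and 28 in the wild type. It was called (3.56 ± 0.70, adjusted p = 0.00704), and lost the call without duplicate 1 of clone 2.5 (adjusted p = 0.0504).

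Beta genes were among the leading differences in FoP. Pcdhb4 held 211 and 203 counts in clone 2.4, 24 and 16 in clone 2.5 and 24 and 20 in the wild type (3.26 ± 0.30, adjusted p = 8.85e-06). Pcdhb15 held 192 and 153 counts in clone 2.4, 20 and 33 in clone 2.5 and 100 and 104 in the wild type (2.57 ± 0.33, adjusted p = 0.000216). Pcdhb4 was thus high in clone 2.4 alone, whereas for Pcdhb15 clone 2.5 was the low culture. Whether the share of beta genes called differs between the lines was not tested.

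Lower in clone 2.4 than in clone 2.5 were Pcdhga4 (6 and 27 against 146 and 83 counts), Pcdhga9 (39 and 16 against 176 and 152) and Pcdhgb7 (49 and 19 against 233 and 154). Their log2 fold changes were -2.88 ± 0.53 (adjusted p = 0.00413), -2.69 ± 0.36 (adjusted p = 0.000252) and -2.61 ± 0.40 (adjusted p = 0.000897). The FoP wild type held 30 and 34, 29 and 22, and 36 and 24 counts of these genes, below both duplicates of clone 2.5 for all 3.

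**Figure D3:**
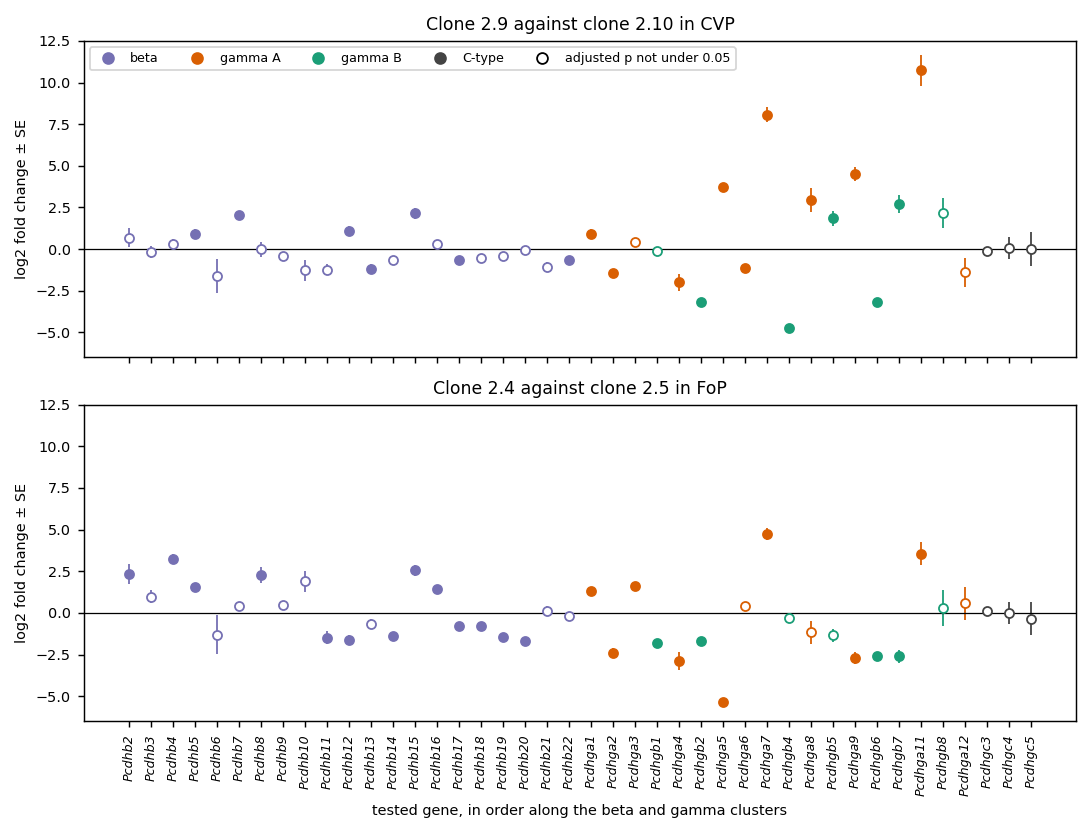
Log2 fold change between the clones of each line (points, with the standard error as bars) for the 42 tested members in order along the clusters; filled points have an adjusted p under 0.05. In CVP the points furthest from 0 are gamma A genes above and Pcdhgb4 below, in FoP they are Pcdhga7 above and Pcdhga5 below, and the 3 C-type genes lie near 0; the fitted value of Pcdhga11 in CVP depends on the prior count because clone 2.10 is at 0.

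The comparisons of clones in CVP and FoP contrast different libraries, but both take their spread from the fit of all 12. Their lists are thus not independent and are set side by side as a description. A fit of each line alone called 14 members in CVP and 28 in FoP. In the shared fit, 14 members were called in both lines, or 66.7% of the 21 in CVP and 56% of the 25 in FoP. Called in neither were 10 tested members. These shares lay near those of all tested members, of which 59.5% were called in FoP and 50% in CVP. Of the 14, 10 had the same sign and 4 the opposite sign (Pcdhb12, Pcdhga5, Pcdhga9 and Pcdhgb7). The sign has no meaning of its own here, since which clone of a pair is the reference is arbitrary. Pcdhga7 was called in both lines, with a low culture in each: clone 2.10 in CVP, at 4 and 0 counts, and clone 2.5 in FoP, at 24 and 7 counts, which is above the limit for off. Pcdhga5 was low in clone 2.10 and in clone 2.4.

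Along the gamma cluster, called genes that were higher lay among called genes that were lower. Whether the signs alternate more often than in a random order was not tested. In CVP 14 gamma A and B genes were called, and in 8 of the 13 pairs of called genes that follow each other along the cluster the members differed in opposite directions. In FoP this held for 6 of 11 pairs. In CVP a run from Pcdhgb2 to Pcdhga8 changed sign at every step among called genes: Pcdhgb2, Pcdhga6 and Pcdhgb4 were lower in clone 2.9 and Pcdhga5, Pcdhga7 and Pcdhga8 were higher.

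The sums over clusters moved less than their members did. Over the 6 cultures the highest beta sum was 2.11 times the lowest, whereas single beta genes (tested, with more than 3 counts in their lowest culture) varied by a median of 4.19-fold (1.87 to 9.63). Gamma A genes varied by a median of 9.09-fold and up to 288-fold for Pcdhga7, a value that rests on the 4 and 0 counts of clone 2.10 and has the wide counting interval given above, against 2.38 for the gamma A sum. Gamma B genes varied by a median of 12.5-fold and up to 35.0-fold for Pcdhgb7, against 5.10 for the gamma B sum. The gamma A and B genes together varied by 2.33-fold and all members by 1.56-fold, from 123 ± 4.40 CPM in the FoP wild type to 192 ± 11.4 CPM in clone 2.5. A sum over many genes varies less than its members for any mix of independent differences, so this contrast is a description.

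Within CVP the gamma A sum was 35.7 ± 1.28 CPM in clone 2.9, 19.3 ± 0.967 in clone 2.10 and 24.4 ± 0.687 in the wild type. The gamma B sum had the opposite order, at 9.29 ± 0.801 CPM in clone 2.9, 47.4 ± 1.21 in clone 2.10 and 17.5 ± 0.323 in the wild type. In FoP clone 2.4 had the higher gamma A sum (30.1 ± 0.0912 against 22.7 ± 1.95 CPM) and the lower gamma B sum (10.1 ± 0.159 against 34.3 ± 3.50 CPM). In each line, then, the clone with more gamma A had less gamma B, and the duplicates did not overlap. With 2 libraries against 2, an exact permutation test (two-sided) cannot go below 0.333.

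**Figure D4:**
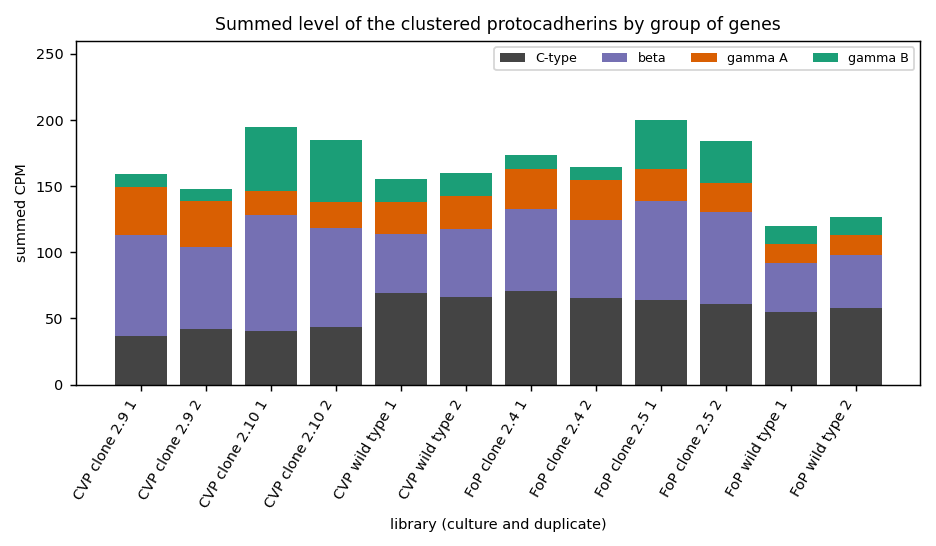
Summed level of the C-type, beta, gamma A and gamma B members in each of the 12 libraries (stacked bars, in CPM); the alpha genes sum to at most 0.470 CPM per culture and are not drawn. Gamma B is widest in clone 2.10 and clone 2.5, and the C-type sum is lowest in the 4 CVP clone libraries.

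The C-type genes were not called between clones. None of the 3 tested C-type genes was called by edgeR in either line, and none passed an unadjusted p of 0.05 or was called by DESeq2 or limma voom. Pcdhgc3 held 2345 and 2628 counts in clone 2.9 and 2650 and 2789 in clone 2.10, a log2 fold change of -0.09 ± 0.07 (adjusted p = 0.634). In FoP it held 4650 and 4196 counts in clone 2.4 and 4029 and 3483 in clone 2.5 (0.12 ± 0.07, adjusted p = 0.363). Pcdhgc4 (0.08 ± 0.66 and -0.02 ± 0.66) and Pcdhgc5 (0.03 ± 1.02 and -0.35 ± 0.99) were low and had wide standard errors.

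Markers of other cell types also differed between clones. The neuronal sum, mostly Stmn2 and Map2, was 106 and 97.5 CPM in clone 2.9 and 52.9 and 47.1 in clone 2.10. Snap25, Elavl4 and Nefl were at 0 in both clones. In FoP the neuronal sum was 20.3 and 22.9 CPM in clone 2.4 against 27.5 and 29.0 in clone 2.5, with Rbfox3 also at 0. The fibroblast sum was 3163 and 4219 CPM in clone 2.9, 4214 and 5212 in clone 2.10, 6116 and 5461 in clone 2.4 and 2929 and 3057 in clone 2.5. That sum was carried by Postn, which was higher in clone 2.4 than in clone 2.5 (0.97 ± 0.18), whereas the collagen gene Col1a2 was lower in clone 2.4 (-2.31 ± 0.36) and lower in clone 2.9 than in clone 2.10 (-1.94 ± 0.33). Their part in the differences among the members was not tested. In bulk libraries, fewer cells that use an isoform and less of its RNA per cell cannot be told apart.

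Each clone was also compared with the wild type culture of its line, which both clones share. Clone 2.9 had 18 called members, 10 higher and 8 lower, against 47.1% of all genes (23.4% higher and 23.6% lower). The 10 higher ones were 6 beta and 4 gamma A genes, led by Pcdhga8 (log2 fold change 2.55 ± 0.69), Pcdhb12 (2.42 ± 0.31), Pcdhga11 (2.23 ± 0.42) and Pcdhb9 (1.73 ± 0.23). The opposite-strand gene Gm37446 overlaps 63.5% of the exon of Pcdhb12, which bears on every comparison that names this gene. Pcdhgb4 (-1.93 ± 0.22), Pcdhgb7 (-1.91 ± 0.39), Pcdhgb6 (-1.85 ± 0.21) and Pcdhgb5 (-1.42 ± 0.37) led the lower ones, all of them gamma B genes. Without duplicate 1 of clone 2.9 the number called was 12, and the calls of Pcdhga8 and Pcdhgb5 were lost in 2 and 1 of 12 fits that left out a library.

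Clone 2.10 had 23 called members against the wild type, 15 higher and 8 lower (all genes: 49.6%, with 25.2% higher and 24.4% lower). Pcdhgb4 (2.80 ± 0.18), Pcdhb10 (2.75 ± 0.67), Pcdhgb2 (2.66 ± 0.19) and Pcdhb9 (2.17 ± 0.23) led the higher ones, and 11 of the 15 were beta genes. Lower were Pcdhga11, at least 15.1-fold, Pcdhga7 (-7.93 ± 0.45), Pcdhgb7 (-4.61 ± 0.50) and Pcdhga9 (-3.69 ± 0.42). For Pcdhgb7 the wild type, with 157 and 162 counts, was above both clones, which held 31 and 46 and 8 and 4 counts.

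Clone 2.4 had 23 called members against the FoP wild type, 17 higher and 6 lower (all genes: 32.4%, with 15.1% higher and 17.3% lower). Pcdhga3 (3.37 ± 0.23), Pcdhb4 (3.23 ± 0.30), Pcdhb2 (3.05 ± 0.64) and Pcdhb10 (2.80 ± 0.67) led the higher ones. Pcdhga5 (-4.30 ± 0.29), Pcdhga2 (-2.87 ± 0.31), Pcdhgb5 (-1.86 ± 0.38) and Pcdhb11 (-1.19 ± 0.38) led the lower ones. The calls of Pcdhb10 and Pcdhb11 were lost in 1 and 3 of 12 fits that left out a library, and that of Pcdhb11 also in limma voom (adjusted p = 0.0843).

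Clone 2.5 had 23 called members, 19 higher and 4 lower (all genes: 34.4%, with 16.3% higher and 18.1% lower). Pcdhb12 (3.0 ± 0.32), Pcdhgb7 (2.80 ± 0.40), Pcdhga9 (2.80 ± 0.36) and Pcdhb14 (2.68 ± 0.21) led the higher ones. The 4 lower ones were Pcdhga7 (-4.26 ± 0.34), Pcdhga11 (-3.51 ± 0.70), Pcdhb15 (-1.82 ± 0.34) and Pcdhb16 (-0.54 ± 0.18), the last of which lost its call in 3 of 12 fits that left out a library and in limma voom (adjusted p = 0.0755). Read against these backgrounds, the members' share called was near that of all genes for both CVP clones and above it for both FoP clones.

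Pcdhgc3 was the C-type gene that moved against the wild type. It fell by 0.78 ± 0.07 on the log2 scale in clone 2.9 (adjusted p = 1.43e-06) and by 0.69 ± 0.07 in clone 2.10 (adjusted p = 3.21e-06). In the CVP wild type it held 4679 and 4722 counts, above the 4 clone libraries. In FoP it rose by 0.28 ± 0.07 in clone 2.4 (adjusted p = 0.00818), a call that was lost without duplicate 1 of clone 2.4 (0.0958) or of the wild type (0.0872), and its value in clone 2.5 was 0.16 ± 0.07 (adjusted p = 0.11). The FoP wild type held 3716 and 3554 counts.

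Of the members called between the clones of a line, the wild type level lay between the clones for 14 of 21 in CVP and for 11 of 25 in FoP. It lay below both clones for 5 in CVP and 13 in FoP, and above both for 2 and 1. Since these members were chosen for a difference between the clones, these counts are a description.

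With both clones of a line pooled as knock-out, fewer members separated from the wild type, in a fit where the difference between clones enters the spread. The 4 knock-out libraries of a line come from 2 clones, so they are not 4 independent samples. In CVP 7 members were called, 4 higher and 3 lower, against 46.4% of all genes (23.5% higher and 22.9% lower). The libraries of the groups did not overlap for 13 members, against 61.7% of all genes. The higher ones were beta genes: Pcdhb10 (2.25 ± 0.87), Pcdhb12 (1.98 ± 0.61), Pcdhb9 (1.97 ± 0.28) and Pcdhb22 (0.75 ± 0.22). The lower ones were Pcdhgb7 (-2.71 ± 0.96), Pcdhgb5 (-2.07 ± 0.60) and Pcdhgc3 (-0.74 ± 0.07). The count was 2 without duplicate 1 and 3 without duplicate 2 of the wild type, and 2 with the duplicates of each culture summed. Pcdhb9, which held 70 and 106 counts in the wild type and 252 to 378 in the knock-out libraries, and Pcdhgc3 were the 2 members that kept their call in all 12 fits that left out a library.

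In FoP 10 members were called, all higher in the knock-out clones, against 28.8% of all genes (13.5% higher and 15.3% lower). The groups did not overlap for 16 members, against 49.7% of all genes. No member was lower by edgeR, and none was lower at an unadjusted p of 0.05 or by DESeq2 or limma voom. Pcdhga3 (2.78 ± 0.53), Pcdhb12 (2.39 ± 0.62), Pcdhb14 (2.14 ± 0.53) and Pcdhb3 (1.65 ± 0.43) were highest, and the others were Pcdhb13, Pcdhga6, Pcdhga1, Pcdhb19, Pcdhb9 and Pcdhgc3 (0.22 ± 0.07). Pcdhga3 held 50 and 60 counts in the wild type, 545 and 599 in clone 2.4 and 201 and 151 in clone 2.5, so both clones were above the wild type. The count was 2 without either duplicate of the wild type and 0 with the duplicates of each culture summed, where edgeR found 3 at an unadjusted p under 0.05.

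The knock-out effect differed between the lines for 2 members, against 15.8% of all genes (7.28% lower and 8.49% higher in CVP than in FoP). No member had the higher effect in CVP by edgeR or limma voom, 1 did by DESeq2 and 2 did at an unadjusted p under 0.05. Pcdhga3 had an effect of 0.16 in CVP and 2.78 in FoP, a difference of -2.62 ± 0.67 (adjusted p = 0.0231). Pcdhgc3 had an effect of -0.74 in CVP and 0.22 in FoP, a difference of -0.96 ± 0.10 (adjusted p = 0.000491). The call of Pcdhga3 was lost when any of the 4 wild type libraries was left out, with adjusted p-values of 0.0631 to 0.113. With summed duplicates edgeR called 0 members and found 1 at an unadjusted p under 0.05.

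The summed fibroblast markers, of which Postn (826 to 5950 CPM) made up most in every library, moved with the label in both lines, from 1702 and 1423 CPM in the CVP wild type to 3163 to 5212 in its clones and from 1091 and 939 CPM in the FoP wild type to 2929 to 6116. Of the 10 tested fibroblast markers, 5 were called higher and 1 lower in CVP (all genes: 23.5% and 22.9%). In FoP 3 were called higher and 1 lower (all genes: 13.5% and 15.3%). Dcn went against the sum and was lower in the knock-out clones of CVP (-2.11 ± 0.41) and FoP (-1.87 ± 0.41). Lum was at 0 throughout. The neuronal sum was higher in the CVP clones (47.1 to 106 CPM) than in their wild type (26.9 and 22.2) and lower in the FoP clones (20.3 to 29.0) than in theirs (55.3 and 49.1), with Elavl4 at 0 throughout. The immune sum was lower in the CVP clones, at 10.3 to 18.1 CPM against 104 and 108 in the wild type, with Ptprc and Tyrobp at 0 in all 6 cultures. Their part in the members' differences from wild type was not tested.

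Between the wild types, 12 members were called and all were lower in FoP, against 16.3% of all genes (7.86% lower and 8.46% higher). The duplicates did not overlap for 32 members (4 higher and 28 lower in FoP), against 59.2% of all genes. The called members were 4 beta, 4 gamma A and 3 gamma B genes and Pcdhgc3 (-0.27 ± 0.07). Pcdhgb7 (157 and 162 counts in CVP against 36 and 24 in FoP, -2.31 ± 0.40), Pcdhb2 (-2.27 ± 0.65), Pcdhga9 (-2.03 ± 0.36) and Pcdhb4 (-1.96 ± 0.30) differed most. No member was called higher in FoP by edgeR, DESeq2 or limma voom, and 1 was higher at an unadjusted p of 0.05. Leaving out a wild type library left 5 to 7 calls and ended those of Pcdhb2 and Pcdhgc3. Each line is a single wild type culture, so the papilla of origin cannot be told apart from the culture.

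**Figure D5:**
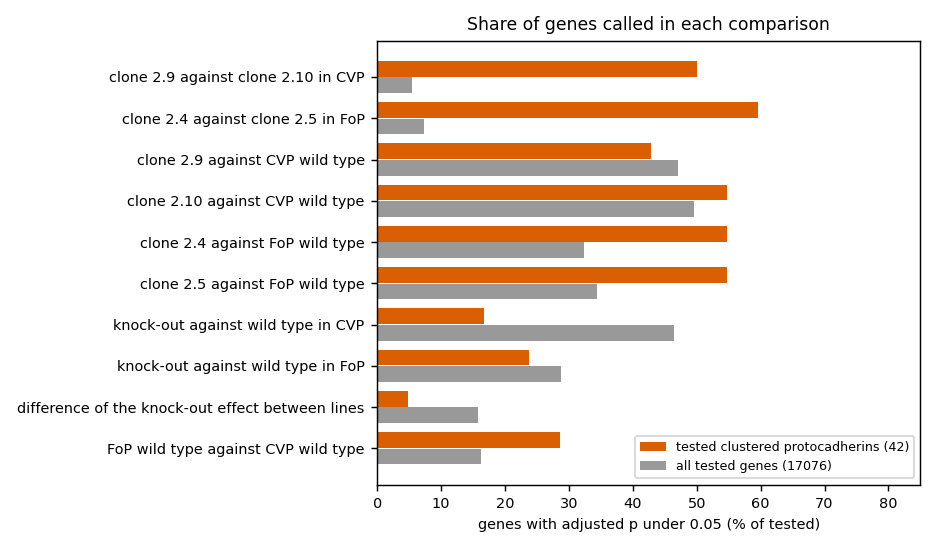
Share of the 42 tested members and of all 17076 tested genes with an adjusted p under 0.05 in each of the 10 comparisons (bars from 0, in % of tested genes). The members' bar is many times the length of the bar for all genes in the 2 comparisons of clones, and is shorter than it for the 2 knock-out against wild type comparisons and for their difference.

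Genes that act on or with the clustered protocadherins were counted from lists. Among 29 regulators of clustered protocadherin promoters, none was called between the CVP clones by edgeR, DESeq2 or limma voom, where edgeR called 5.42% of all genes. An unadjusted p of 0.05 was passed by 4 of them. The share of all genes that pass an unadjusted p of 0.05 is not given, so such counts have no background here or in other lists. The list's median log2 fold change was -0.02, beside -0.00102 for all genes. Between the FoP clones 1 of 29 was called, Atf7ip, a partner of the histone methyltransferase Setdb1, at 0.23 ± 0.06 (adjusted p = 0.0483), where 7.26% of all genes were called, and the median was 0.02 beside 0.000843 for all genes. Against the wild type, 3 regulators were higher and 9 lower in the CVP knock-out clones, where 23.5% of all genes were higher and 22.9% lower. They included the cohesin subunits Rad21 (-0.56 ± 0.05) and Stag2 (-0.51 ± 0.06), the repressor Rest (0.32 ± 0.06) and Lrif1 (0.48 ± 0.08), a partner of Smchd1. In FoP, where 13.5% of all genes were higher and 15.3% lower, 1 was higher, Lrif1 (0.44 ± 0.08), and 11 were lower, including the maintenance methylation genes Uhrf1 (-1.53 ± 0.34) and Dnmt1 (-0.46 ± 0.06).

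Other cadherin genes were counted in the same way, and the shares called among all genes stay those just given: 5.42% and 7.26% between clones, 46.4% for the knock-out label in CVP and 28.8% in FoP. Of 7 tested nonclustered protocadherins, none was called between clones of either line by edgeR, DESeq2 or limma voom, and 1 in each line passed an unadjusted p of 0.05. Of 19 classical and desmosomal cadherins, the desmosomal genes Dsc3 (0.78 ± 0.07) and Dsc2 (0.26 ± 0.05) were higher and Cdh2, N-cadherin, was lower (-1.27 ± 0.34) in clone 2.9 than in clone 2.10. Between the FoP clones Dsc3 alone was called (0.30 ± 0.07). Against the wild type, 3 of the 7 nonclustered protocadherins were lower in CVP (all genes: 22.9%), led by Pcdh9, which stood at 0.351 and 0.347 CPM in the wild type and at 0 to 0.0309 CPM in the clone libraries. In FoP 5 were lower (all genes: 15.3%), led by Pcdh8 (-4.01 ± 0.92) and Pcdh19 (-3.50 ± 0.55), and Cdhr1 was higher (0.48 ± 0.14). Of the 19 cadherins 8 were higher and 2 lower in CVP (all genes: 23.5% and 22.9%), led by Cdh2, at 0.0293 and 0.0278 CPM in the wild type and 3.52 to 14.1 CPM in the clone libraries, and by Cdh10 (2.57 ± 0.57), and 3 were higher and 2 lower in FoP (all genes: 13.5% and 15.3%), where Cdh6 fell by 3.01 ± 0.66.

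The genes that flank the clusters on the chromosome were tested too. Of 24 tested neighbours, 1 was called in CVP, Nrg2, a neuregulin, which was lower in clone 2.9 (-1.76 ± 0.43, adjusted p = 0.0287). In FoP none was called by edgeR or limma voom, 1 was called by DESeq2, and 6 passed an unadjusted p of 0.05. Of 27 tested genes of protocadherin signalling and processing, none was called in CVP by any of the 3 tools, with 2 at an unadjusted p under 0.05, and Pak1, a kinase of the cytoskeleton, was called in FoP (-0.27 ± 0.05). Against the wild type 8 of 24 neighbours were higher and 9 lower in CVP (all genes called: 46.4%), and 3 were higher and 6 lower in FoP (all genes called: 28.8%). Of the 27 signalling genes 5 were higher and 7 lower in CVP, against 46.4% of all genes called, led by Fyn (0.89 ± 0.11) and Brk1 (-0.39 ± 0.05), and 7 were higher and 4 lower in FoP, against 28.8% called, led by Ret (1.42 ± 0.32) and Abi1 (-0.28 ± 0.05).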

How the data were processed

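Gene-level read counts of 12 polyA RNA libraries were used as the authors deposited them. Per the labels' protocols, RNA was taken with a Qiagen RNA-easy kit and libraries were made with Truseq stranded mRNA. The submitters' processing notes name STAR, featureCounts and the build hg38 without versions, although the gene symbols are those of mouse. The annotation and strand setting are not given in the sources used here. Counts of 2 and 4 (20289 and 10030 values) were more frequent than counts of 1 and 3 (20007 and 6626), so halved counts were an alternative.

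Members and gene lists were chosen with earlier results of these data known. Genes were filtered with filterByExpr (minimum count 10), scaled by TMM and tested with edgeR 4.0.16 (R 4.3.3; quasi-likelihood test, Benjamini-Hochberg over all 17076 genes tested, threshold 0.05). Clones were compared in a fit of 6 cultures and the knock-out label in a fit of 4 arms. Named members were the 4 largest called changes in each direction, the tested C-type genes and the leading member per length. Gene lists gave up to 2 called genes in each direction. Alternatives were DESeq2 1.42.0 (Wald test and size factors), limma 3.58.1 (voom), other filters, summed duplicates, a replicate block, a fit of each line alone and each library left out. The length free of genes on both strands was an alternative added after seeing the data.

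CPM are counts scaled by the TMM-adjusted library size. Coordinates and lengths come from GENCODE M21, which is not stated to be the counting annotation. Reads that also match another gene may have been lost or split. Of all 75-base windows of a tested member's variable exon, 34.0 to 100% were found on neither strand of another gene's transcript. The other windows can be shared with similar members or with a gene that overlaps the exon on the opposite strand. Pcdhb12, Pcdhga11 and Pcdhgc3 were under 50%, and opposite-strand genes cover 63.5, 52.4 and 46.1% of their variable exons. Intervals and the floor of 3 counts cover counting error only. The scripts were tested on simulated counts. Sequences of the members are not reported here.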

Additional observations from a re-analysis of the deposited data

Results flagged for a closer look

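For 2 members the effect of the knock-out label differed between the lines in a test of the difference itself (edgeR's interaction term, with 42 members tested among 17076 genes). Pcdhga3 had a log2 effect of 0.16 in CVP and 2.78 in FoP, a difference of -2.62 with an adjusted p of 0.0231. Pcdhgc3 had a log2 effect of -0.74 in CVP and 0.22 in FoP, a difference of -0.96 with an adjusted p of 0.000491. Both rest on a single wild type culture and 2 clones in each line. Neither was called with the duplicates of each culture summed, a fit that leaves a lone wild type sample in each line. The call of Pcdhga3 was also lost with no filter, in limma voom and when any of the 4 wild type libraries was left out. Pcdhgc3 kept its call in those settings.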

How the results depend on the processing

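The 2 clone comparisons, the 4 comparisons of a clone with wild type and the comparison of the wild types kept their counts of called members within 1.5 times under every setting other than leaving out a library. Their ranges were 14 to 25 (clone 2.9 against 2.10), 24 to 28 (2.4 against 2.5), 18 to 20, 23 to 24, 21 to 24 and 21 to 24 (clones 2.9, 2.10, 2.4 and 2.5 against wild type) and 11 to 13 (wild types). The knock-out comparisons moved more. In CVP summed duplicates gave 2 and a fit of 6 cultures, which takes the mean of the clones and leaves their difference out of the spread, gave 23. In FoP limma voom gave 2, summed duplicates 0 and the fit of 6 cultures 28. For the difference between lines no filter gave 1, the DESeq2 Wald test 4, limma voom 1, summed duplicates 0 and the fit of 6 cultures 13. The cause of the other changes was not tested.

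Leaving out a library gave 14 to 20 called members for clone 2.9 against 2.10, 18 to 26 for 2.4 against 2.5, 12 to 20 for 2.9, 20 to 25 for 2.10, 19 to 24 for 2.4 and 19 to 23 for 2.5 against wild type. It gave 2 to 9 for the knock-out label in CVP, 2 to 13 in FoP, 1 to 3 for the difference between lines and 5 to 13 for the wild types. A wild type arm is then a lone library that is assumed to vary like the others. Of the named genes' values, 1052 kept their outcome and 64 lost a call on leaving out a library. Under other settings 718 kept their outcome and 27 lost a call. The kept outcomes include those of C-type genes that were not called in either fit. Where a fit called the gene, 0 values reversed in sign. Values without a call did change sign, as for Pcdhgc4 between clones 2.9 and 2.10 (log2 fold change -0.607 to 0.538).

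With the replicate number as a block, 20 and 25 members were called between clones, 5 in CVP and 8 in FoP for the knock-out label. Over 15 pairs of cultures the correlation of same-numbered libraries ran from -0.174 to 0.359, with 3 over 0.1: clone 2.9 with 2.10 (0.359), clone 2.4 with 2.5 (0.229) and the wild types (0.128). These are pairs that the text compares, so shared numbers may mark something within them, but not every pair was over 0.1 and the labels name nothing shared, so the samples were not treated as paired. The block gave 12 calls between the wild types. Median differences between duplicates were 0.249 to 0.320 (log2) for tested members and 0.107 to 0.159 for all genes, which limits what low members can show.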
